A study of Mus musculus with 4 samples.

Results

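The genes described here encode the proteins of the mitochondrial ribosome and were taken from the arrays by their symbol. Every probe that was not a control spot and whose gene name began with Mrpl (large subunit) or Mrps (small subunit) followed by a number was a member. This gave 106 probes for 76 genes, of 39429 probes and 30439 genes or transcripts on the array. Of the 76 genes, 47 carried an Mrpl and 29 an Mrps symbol, and they lay on 17 chromosomes. Male C57BL/6J mice were kept on a high-fat diet (HFD) for 24 weeks, and the RNA of 1 liver sample per group was read on its own one-colour array. With 2 genotypes and 2 feeding states this makes 4 groups with n = 1 each. The Drp1LiKO mice carried 2 floxed Drp1 alleles and Cre recombinase under the albumin promoter, which acts in hepatocytes, and the controls, labelled wild type, were littermates with the floxed alleles and, from the study's description, no Cre. Drp1 is the GTPase that divides mitochondria. The refed livers followed a fast of 17 h and 4 h of refeeding. The labels of the other 2 livers give no feeding state, and these livers are called fasted here from the study's description only. Their labels also name them as raw data shared with earlier submissions.

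The mitochondrial ribosome translates the small set of proteins encoded by mitochondrial DNA, all of them subunits of the respiratory chain and ATP synthase. Its proteins are encoded in the nucleus, made in the cytosol and imported, and they assemble on ribosomal RNAs made inside the organelle. Some are homologs of bacterial ribosomal proteins and others are found only in mitochondria, and liver, which is rich in mitochondria, expresses them strongly.

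All 76 genes were measured well above background on all 4 arrays, and 71 of them were brighter than the median of the 14449 genes with that property, with a median percentile of 80.9. The raw signal differed between arrays, with a 75th percentile of 461 and 722 in the fasted control and Drp1LiKO livers and of 357 and 526 in the refed ones. Levels are therefore log2 signals minus the 75th percentile of that array, and differences are given after subtraction of the median difference of the 14449 genes, which lay between -0.12 and 0.12 (a centred log2 difference, 0 for a gene that moved like the median gene). The scanner's error model gave a measurement standard error (SE) of 0.20 for a member's difference. It used the same multiplicative error of 0.1 on all 4 arrays. The SE was therefore nearly the same for every member (0.204 to 0.216), and member counts beyond 2 SEs use close to a fixed cut. It is a model value, and repeated spots gave a smaller standard deviation, 0.08 to 0.10, for a difference. Neither includes the differences between mice, so no p-value exists for a single genotype or feeding contrast. Dnm1l, the gene of Drp1, read 1.02 and 0.81 in control and Drp1LiKO liver after fasting and, in the refed pair, 0.66 and 0.54, from a probe whose place relative to the deleted part is not known here, so that it does not check the labels. The hepatocyte list had 9 of 9 markers well above background on all arrays, and its summed signal, in multiples of the array's 75th percentile, was 3176 in control and 2147 in Drp1LiKO liver after fasting and, in the refed pair, 3853 and 2556. The markers did not all go with the sum. In each genotype contrast 7 were below and 2 above the median gene, the highest at 1.16 after fasting and 1.32 after refeeding. The 8 macrophage or Kupffer cell markers summed to 61.3 and 70.3 after fasting and to 68.7 and 119.8 after refeeding, again control first. For genotype, 5 of them were above and 3 below the median gene after fasting, and all 8 were above it after refeeding. The endothelial list summed to between 38.5 and 57.0, and the lists of monocyte-derived macrophages, neutrophils, lymphocytes, stellate cells and bile duct to at most 8.80 on any array. The bile duct list included 1 gene on no array, Epcam. In whole liver, fewer cells of a type and less RNA per cell cannot be told apart, and the part of these marker differences in the results was not tested.

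The members moved by small steps and mostly together. After refeeding they were higher than the median gene in both genotypes, by a median of 0.22 in control and 0.41 in Drp1LiKO liver, which is 1.16-fold and 1.33-fold. In Drp1LiKO against control liver they were lower than the median gene after fasting, with a median of -0.19 or 0.876-fold. After refeeding the genotype median was -0.04, and its sign turned under quantile and normexp processing and in the authors' normalized values. Centred on all 30439 genes, dim ones included, in place of the 14449 detected ones, the refeeding medians were -0.014 in control and 0.30 in Drp1LiKO liver, and the genotype medians -0.0084 and 0.25. No member reached a 2-fold difference in any contrast. The share of all genes that did was 5.88% and 6.96% for genotype after fasting and after refeeding, and 4.48% and 6.08% for refeeding in control and Drp1LiKO liver. The members also varied less among themselves than genes in general, with standard deviations (SD) between 0.16 and 0.26 against 0.47 to 0.58 over all genes.

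**Figure D1:**
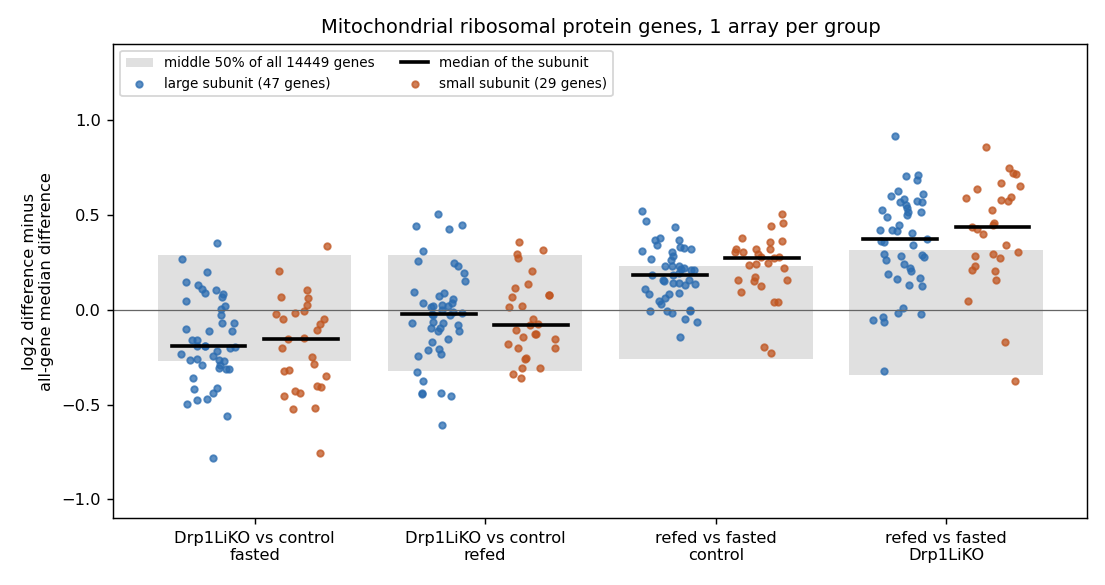
Centred log2 difference (vertical axis) of each of the 76 genes in the 4 contrasts, large subunit in blue and small subunit in orange, with the median of each subunit as a black bar and the middle 50% of all 14449 genes in grey. In both refeeding contrasts the members lie mostly above 0, with medians of 0.18 and 0.27 in control and 0.37 and 0.43 in Drp1LiKO liver, and in the fasted genotype contrast mostly below 0.

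In fasted liver, 57 of the 76 members were lower in Drp1LiKO than in control relative to the median gene, on either side of which 50% of all genes lie by construction. Of these, 14 were lower by more than 2 measurement SEs and no member was higher by as much, against 14.4% and 16.6% of all genes. The 1.5-fold mark was passed by 2 members, both lower, while 8.71% of all genes were lower by that much. Mrpl34, a conserved protein of the large subunit, had log2 levels of 3.70 in control and 2.80 in Drp1LiKO liver after fasting and, in the refed pair, 4.03 and 3.51. Drp1LiKO was below control in both feeding states, by 0.78 after fasting and 0.44 after refeeding on the centred log2 scale. Mrps25, a small subunit protein found only in mitochondria, read 2.98 and 2.10 after fasting and 3.32 and 2.94 after refeeding. Its fasted Drp1LiKO array was the lowest of the 4, and the centred genotype differences were -0.76 and -0.31. Mrpl49, a mitochondria-specific large subunit protein, followed with -0.56. Mrps36, whose product is now assigned to the oxoglutarate dehydrogenase complex of the citric acid cycle, had -0.53, and Mrps21, homolog of bacterial S21, had -0.52.

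On the other side of the median gene in fasted liver were 19 members, of which the 5 highest are given here. Mrpl50, a mitochondria-specific protein of the large subunit, read 2.24 in control and 2.47 in Drp1LiKO liver after fasting and, in the refed pair, 2.20 and 2.57. Drp1LiKO was above control in both states, by 0.35 and 0.44. Mrps31, mitochondria-specific and in the small subunit, read 2.72 and 2.94 after fasting and 2.61 and 2.88 after refeeding. Its centred genotype differences of 0.34 and 0.36 were of one size in both states. Mrpl37, Mrps2 and Mrpl35 completed the 5 highest after fasting, with 0.27, 0.20 and 0.20. All 5 were less than 2 SEs from 0 after fasting, as was Mrps31 after refeeding. A second, dimmer probe of Mrpl50 had 0.25 and 0.55 for genotype after fasting and refeeding, and one of Mrps2 had 0.62 after fasting.

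In refed liver, 33 members were above and 43 below the median gene, and 1 member was lower by 1.5-fold, against 11.3% of all genes. That member was Mrpl49, with log2 levels of 2.31 in control and 1.63 in Drp1LiKO liver after fasting and, in the refed pair, 2.41 and 1.72. By this probe, the brighter of the pair detected on all 4 arrays, both Drp1LiKO arrays were below both control arrays, and the centred differences were -0.56 and -0.61. The dimmer Mrpl49 probe read 1.43 and 0.96 after fasting and 1.86 and 1.68 after refeeding, control first. Its genotype differences were -0.35 and -0.09, so it was also lower in Drp1LiKO but close to the median gene in refed liver, and the size of the Mrpl49 difference depends on the probe. Mrpl14 was also lower in both states, at -0.49 and -0.45, as was Mrpl2 at -0.42 and -0.44. Mrpl14 sits on the face of the large subunit that meets the small one, and Mrpl2 beside the peptidyl transferase centre. Mrpl28 had -0.19 after fasting and -0.44 after refeeding. The highest values in refed liver belonged to Mrpl47, a protein at the exit tunnel, at 0.51, followed by Mrpl50 at 0.44, Mrpl1 at 0.44, Mrpl19 at 0.43 and Mrps31 at 0.36. Mrpl47 and Mrpl19 were within 1 SE of 0 after fasting, at -0.03 and 0.07.

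The fasted and the refed genotype contrasts have no array in common. Across the 76 members their centred differences had a Pearson correlation of 0.69 and a Spearman correlation of 0.68, against 0.64 and 0.65 over all genes. The points share the 4 arrays, the slide and the scale of the scanner, and genes are not independent replicates. Relative to the median gene, 38 members were lower in Drp1LiKO in both feeding states, 14 higher in both and 24 on opposite sides, where 37.2% of all genes were lower in both and 37.2% higher in both. No member lay on opposite sides by more than 2 SEs each.

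**Figure D2:**
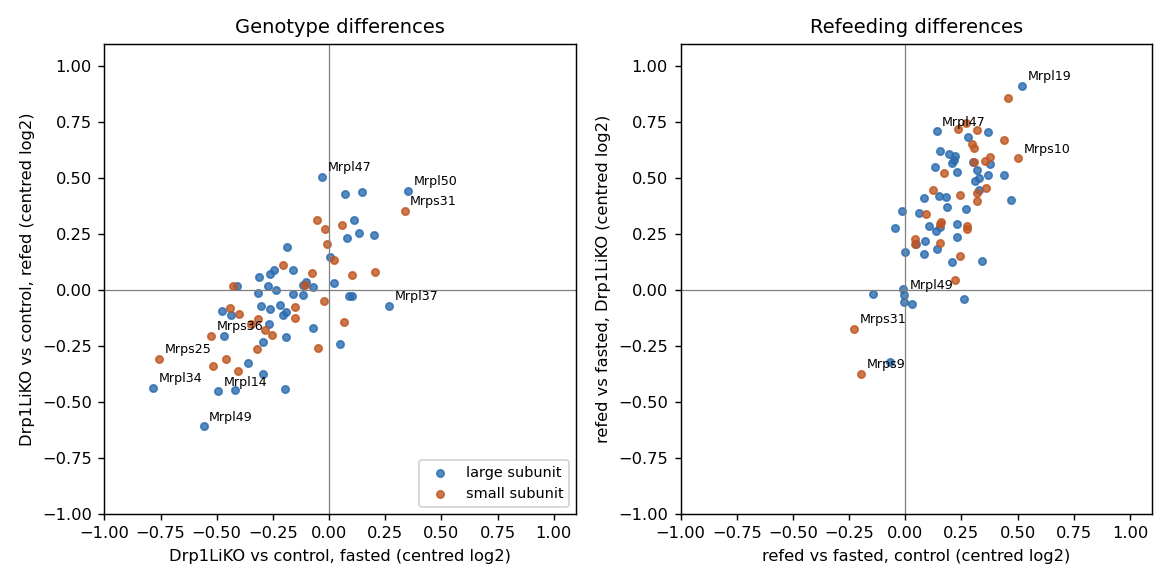
Left, the centred log2 genotype difference of each member in fasted (horizontal axis) against refed liver (vertical axis); right, the centred log2 refeeding difference in control (horizontal) against Drp1LiKO liver (vertical). Blue points are large and orange points small subunit genes. In the left panel Mrpl49, Mrpl34, Mrps25 and Mrpl14 lie low on both axes and Mrpl50 and Mrps31 high on both, and in the right panel 64 of 76 genes lie above 0 on both axes.

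Refeeding gave the most uniform pattern. Relative to the median gene, 66 members were higher after refeeding in control liver, 68 in Drp1LiKO liver and 64 in both, where 37.5% of all genes were higher in both. The refeeding contrasts of the 2 genotypes share no array. In control liver no member reached 1.5-fold, where 4.60% of all genes were higher and 9.97% lower by that much, and 6 were higher by more than 2 SEs with none lower, against 8.63% and 14.5% of all genes. In Drp1LiKO liver 16 members, 7 of the large and 9 of the small subunit, were higher by at least 1.5-fold and none lower, against 10.6% and 13.5% of all genes. By over 2 SEs, 38 were higher and none lower, against 18.6% and 20.1%.

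Mrpl19, a conserved protein of the face between the subunits, had the largest refeeding difference in both genotypes. Its log2 levels were -0.53 in fasted and 0.10 in refed control liver, and -0.58 and 0.45 in Drp1LiKO liver. Both refed arrays were above both fasted arrays, with centred differences of 0.52 and 0.91. Mrps18b, 1 of 3 mammalian relatives of bacterial S18, read 4.63 and 5.20 in control and 4.46 and 5.43 in Drp1LiKO liver. Its refed levels were also above both fasted levels, and its centred differences were 0.46 and 0.86. Mrps10, homolog of a bacterial small subunit protein of the head domain, had 0.50 and 0.59. Mrpl20, a conserved protein of the large subunit, had 0.47 and 0.40, and Mrps27, a pentatricopeptide repeat protein of the small subunit, had 0.44 and 0.67. In Drp1LiKO liver Mrps16, Mrps25 and Mrps7 were also among the 5 highest, at 0.75, 0.72 and 0.71.

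The members on the other side were few. Mrps9, homolog of bacterial S9, read 0.80 in fasted and 0.72 in refed control liver, and 0.75 and 0.49 in Drp1LiKO liver. It was the lowest member in Drp1LiKO liver, with centred differences of -0.20 in control and -0.37 in Drp1LiKO. Mrps31 had -0.23 and -0.17, Mrpl9, homolog of a long bacterial protein that reaches out from the large subunit, -0.07 and -0.32, and Mrpl50 -0.15 and -0.02. The dimmer Mrpl50 probe lay on the other side, at 0.06 and 0.39. Mrpl36 was at -0.05 in control and 0.28 in Drp1LiKO, and Mrpl39 and Mrpl44 at -0.05 and -0.06 in Drp1LiKO liver. A dimmer Mrpl39 probe had -0.64 there. The brighter Mrpl49 probe was level with the median gene on refeeding, at -0.01 and -0.02, and the dimmer one was above it, at 0.32 and 0.61.

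The gap between the refeeding differences, Drp1LiKO minus control, lay above that of the median gene for 61 of the 76 members. By construction 50% of all genes lie there. The members' median gap was 0.14 over that of the median gene. With the probe used for each gene, the widest gap was that of Mrpl47 at 0.54, followed by Mrps25 at 0.45 and Mrps16 at 0.45. The narrowest was that of Mrpl37 at -0.33. A second, dimmer Mrpl47 probe detected on all 4 arrays had a gap of -0.36, so the place of Mrpl47 depends on the probe. No member's gap reached 2-fold, which 4.24% of all genes did, and none exceeded 2 of its own SEs of 0.29, against 5.12% of all genes above and 6.60% below. With 1 array per group no test of the gap is possible. The fasted Drp1LiKO array enters both the fasted genotype contrast and the Drp1LiKO refeeding contrast, so the lower genotype value and the higher refeeding value of genes such as Mrps25 are not separate observations.

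**Figure D3:**
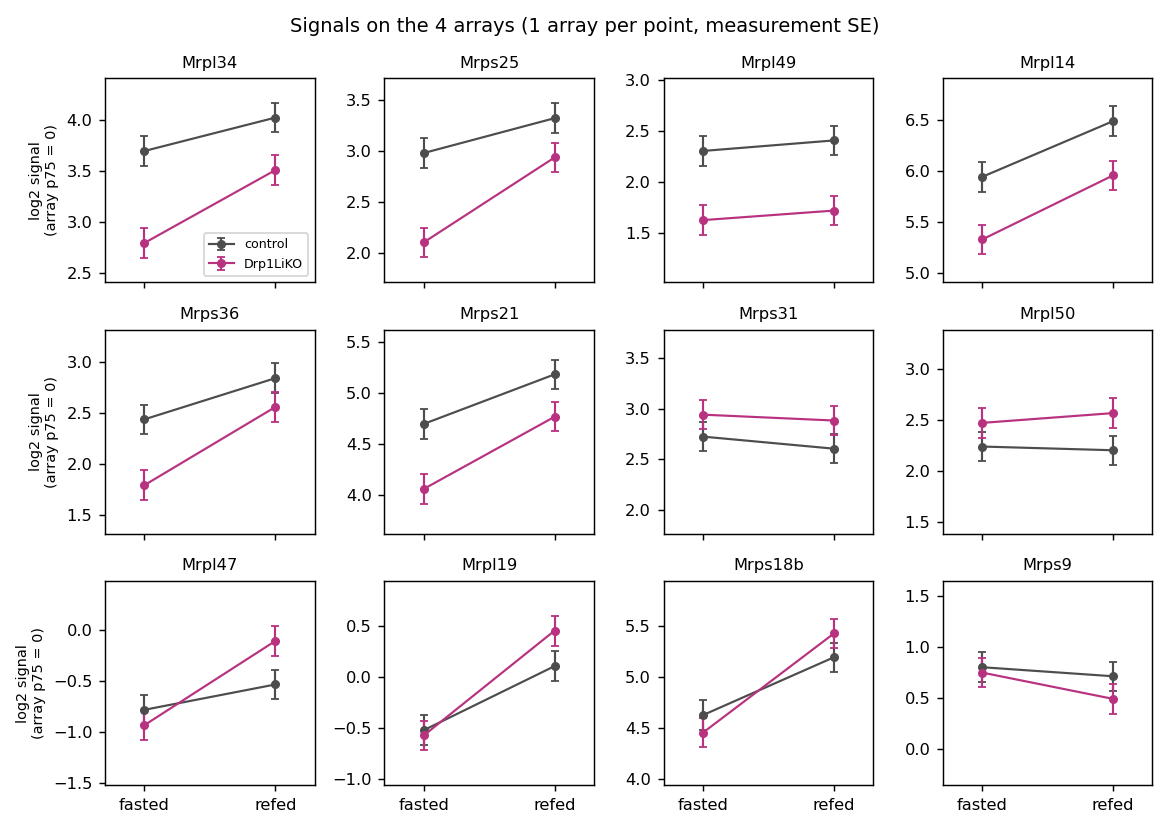
Log2 signal relative to the 75th percentile of the array (vertical axis, 0 is that percentile) of 12 named members in fasted and refed liver, control in grey and Drp1LiKO in magenta. Each point is 1 array, bars are the measurement SE of 1 signal, and every panel spans 2 log2 units. The brighter Mrpl49 probe, plotted here, is apart by genotype in both states, Mrpl19 and Mrps18b lie higher in both refed livers, and Mrps9 is lowest in refed Drp1LiKO liver.

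The large and the small subunit had medians of -0.19 and -0.15 for genotype after fasting, -0.02 and -0.08 after refeeding, 0.18 and 0.27 for refeeding in control liver, and 0.37 and 0.43 in Drp1LiKO liver. The gap between these medians was at most 0.09 in size, and with 1 array per group it was not tested. The order of the subunits in the fasted genotype contrast turned under quantile processing, where large minus small went from -0.04 to 0.03. In control liver 39 of 47 large and 27 of 29 small subunit genes were above the median gene after refeeding, and in Drp1LiKO liver 41 of 47 and 27 of 29. Placing Mrps18a and Mrps30 in the large subunit, where the mammalian structure holds them, and leaving out Mrps36 gave 0.19 and 0.24 for refeeding in control liver and 0.37 and 0.43 in Drp1LiKO liver. By the universal names of ribosomal proteins, 46 members are classed as conserved and 29 as mitochondria-specific, Mrps18a and Mrps18b among the latter. The 2 classes had medians of -0.19 and -0.16 for genotype after fasting, and of 0.42 and 0.36 for refeeding in Drp1LiKO liver.

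The members can also be read by their place in the particle. In the stalk that recruits translation factors, Mrpl12 was the member with the strongest refeeding value, at 0.32 in control and 0.53 in Drp1LiKO liver, and Mrpl11 at its base had 0.23 and 0.53. Mrpl10, which anchors the stalk, had -0.01 and 0.01. In fasted liver the genotype differences of Mrpl12, Mrpl11 and Mrpl10 were -0.26, -0.47 and -0.19, and a dimmer Mrpl10 probe read 0.22. On the side of the exit tunnel and inner membrane, Mrpl45, which docks the ribosome to the membrane, had -0.48 for genotype after fasting and 0.55 for refeeding in Drp1LiKO liver. Mrpl23 and Mrpl24, which line the rim of the tunnel, had -0.27 and -0.19 for genotype after fasting and 0.52 and 0.22 for refeeding in Drp1LiKO liver. Mrpl44, with a ribonuclease III-like fold, stayed within 1 SE of 0 in all 4 contrasts, with values between -0.06 and 0.10. Near the peptidyl transferase centre, Mrpl16 and Mrpl27 had 0.50 and 0.42 for refeeding in Drp1LiKO liver and -0.11 and -0.24 for genotype after fasting. Mrpl3 stayed within 1 SE of 0 in all 4 contrasts.

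In the small subunit, Mrps12, the protein of the decoding centre, read 4.56 and 4.03 in control and Drp1LiKO liver after fasting and, in the refed pair, 4.99 and 4.55. It was lower in Drp1LiKO in both states, at -0.41 and -0.36, and higher on refeeding in both genotypes, at 0.32 and 0.40. Along the path of the messenger, Mrps7, Mrps24 and Mrps28 had refeeding values of 0.71, 0.42 and 0.57 in Drp1LiKO liver, and Mrps5 had 0.23. For genotype after fasting Mrps7 and Mrps24 had -0.44 and -0.46, and Mrps28 and Mrps5 had 0.06 and -0.07. The relatives of bacterial S18 differed from each other, with 0.86 for Mrps18b, 0.46 for Mrps18a and 0.30 for Mrps18c on refeeding in Drp1LiKO liver and with -0.05, -0.32 and -0.29 for genotype after fasting. The other Mrps18b probes had 0.02 and 0.34 for genotype after fasting. Mrps30 had 0.10 for genotype after fasting, and 0.28 and 0.27 for refeeding in control and Drp1LiKO liver.

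Repeated spots and second probes show how far a member's value rests on 1 spot. Mrpl34, Mrps35 and Mrpl50 were each printed 10 times. The 10 spots of Mrpl34 lay between 3.61 and 3.82 in control and between 2.66 and 2.89 in Drp1LiKO liver after fasting, so the spots of the 2 arrays did not overlap, and the fasted genotype difference had an SE over spots of 0.03. The spots of Mrpl50 lay between 2.18 and 2.29 in control and 2.43 and 2.49 in Drp1LiKO liver after fasting. Mrps35, a small subunit protein found in mitochondria, was at -0.02 for genotype after fasting and at 0.28 for refeeding in both genotypes. Of the 26 members with several probes, 23 had more than 1 well above background on all 4 arrays, and the median range between probes of a gene was 0.11 to 0.16. For 9 of these 23 members the probes lay on opposite sides of the median gene in the fasted genotype contrast, and for 9 in the refed one. For refeeding this was so for 6 members in control and 4 in Drp1LiKO liver. The probe pairs of Mrpl23, Mrpl40 and Mrps18b overlap by 52 to 55 bases and differed by at most 0.07.

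Among the 23 members with several probes well above background on all 4 arrays, Mrpl41 was the only one whose probes differed by more than 1 in any of the 4 contrasts, with refeeding values of 0.18 and -0.996 in control liver. The second probe was dim, with log2 levels of -2.34 and -3.23 in fasted and refed control liver. The values of Mrpl47 rest on 1 bright probe, since a second probe detected on all 4 arrays, at log2 levels of -3.18 to -2.72, had -0.04 for genotype after refeeding and 0.03 for refeeding in Drp1LiKO liver where the bright one had 0.51 and 0.71. Mrps7 had 0.71 and 0.24 for refeeding in Drp1LiKO liver with its 2 probes, both above the median gene. The Mrpl30 probe used maps to chr11:3370827-3370886 of mm9 by the scanner file, and a second Mrpl30 probe to chr1:37954938-37954997. The promoter window of Mrpl30 lies on chromosome 1, so the probe used is placed on a chromosome other than that of the gene. The 2 probes read -0.26 and -0.27 for genotype after fasting and 0.58 and 0.52 for refeeding in Drp1LiKO liver. Across the members 14 probes cross a splice junction, so they detect spliced RNA. The junction probes behind Mrps31 (chr8:23538340-23539688, mm9) and Mrpl37 (chr4:106733238-106734539, mm9), on the high side of the fasted genotype contrast, and behind Mrps36 (chr13:101506215-101509014, mm9), on its low side, are printed here in full.
Mrps31: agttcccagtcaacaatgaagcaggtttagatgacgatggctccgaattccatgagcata
Mrpl37: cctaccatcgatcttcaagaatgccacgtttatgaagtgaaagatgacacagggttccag
Mrps36: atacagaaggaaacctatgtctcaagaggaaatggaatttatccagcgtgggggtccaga

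The test the design allows is an additive model of genotype and feeding state over the 4 arrays (limma), which leaves 1 residual degree of freedom and treats any interaction as error. It was fitted on 16744 genes, without centring. At a Benjamini-Hochberg adjusted p under 0.05, limma called no gene for genotype or for feeding, so the background is 0% and no member passed. At an unadjusted p under 0.05 it had 4746 genes for genotype and 4414 for feeding. Of the members, 10 were among the former, all lower in Drp1LiKO, where 16.7% of all genes were lower by that measure. For feeding, 32 members were there, all higher after refeeding, where 15.8% of all genes were higher. The smallest limma p for genotype among the members was that of Mrpl49, read from its brighter probe alone, with an effect of -0.68 ± 0.14 (SE) on the log2 scale and an adjusted p of 0.11. Mrpl14 and Mrpl34 followed with limma effects of -0.57 ± 0.14 and -0.71 ± 0.17 and an adjusted p of 0.127 each. For feeding, Mrpl19, Mrps10 and Mrps27 had limma effects of 0.83 ± 0.17, 0.66 ± 0.14 and 0.67 ± 0.15, each with an adjusted p of 0.169. Fitted on the 14449 genes detected on all 4 arrays, limma called 1188 genes for genotype and 12 for feeding, and no member among them.

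The members' medians can be set beside those of genes of similar brightness, and the share that brightness has in them was not tested. The 2495 genes in the middle brightness range of the members had medians of -0.07 and -0.04 for genotype after fasting and refeeding, and of 0.06 and 0.12 for refeeding in control and Drp1LiKO liver. Quantile normalization, which gives all arrays one distribution, brought the members' refeeding medians to 0.11 and 0.24, and the fasted genotype median to -0.11. The members stayed above the median gene on refeeding, with at least 60 of 76 genes in control and 61 in Drp1LiKO liver under the 6 scalings tried. They stayed below it for genotype after fasting, with at most 25 of 76 above. After centring, scaling to the median repeats the main values by construction, and the authors' values lie close to those of quantile normalization. Of the single genes, 50 were below and 18 above the median gene for genotype after fasting under every scaling, and 61 above and 8 below for refeeding in Drp1LiKO liver.

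Other genes of mitochondrial translation did not all move alike. The 7 mitoribosomal proteins filed under other symbols had medians of -0.36 and -0.08 for genotype after fasting and refeeding and of 0.30 and 0.50 for refeeding in control and Drp1LiKO liver. Among them Gadd45gip1, a large subunit protein, had -0.61 for genotype after fasting and 0.72 for refeeding in Drp1LiKO liver. The 26 detected factors of ribosome assembly and ribosomal RNA modification had 0.07 and -0.01 for genotype and 0.12 and 0.00 for refeeding. Ddx28, a helicase of large subunit assembly, had 1.01 for genotype after fasting. The 15 detected translation factors had -0.10 and -0.03 for genotype and 0.08 and 0.09 for refeeding. The elongation factor Tufm was lower in Drp1LiKO by 0.38 after fasting and 0.39 after refeeding, and Slirp, an RNA stabilizing protein, had 0.72 for refeeding in Drp1LiKO liver. The 13 detected genes of mitochondrial DNA transcription and its regulators had 0.11 and 0.03 for genotype and -0.17 and -0.18 for refeeding. Ppargc1a, the coactivator of mitochondrial biogenesis that fasting induces, was at -1.13 and -0.97 on refeeding in control and Drp1LiKO liver.

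The ribosomal proteins of the cytosol moved further on refeeding. All 80 detected genes were above the median gene in both genotypes, with medians of 0.34 and 0.62, and 57 of them passed 1.5-fold in Drp1LiKO liver. Under quantile normalization these medians were 0.10 and 0.24, close to the 0.11 and 0.24 of the mitochondrial set. For genotype the sets differed in refed liver. There the cytosolic median was 0.13, with 70 of 80 genes above the median gene, and the mitochondrial median was -0.04. Under the 6 scalings the cytosolic value lay between 0.13 and 0.25 and the mitochondrial one between -0.04 and 0.03. In fasted liver the cytosolic median was -0.11 and turned to 0.11 under quantile normalization, while the mitochondrial one was -0.19 and -0.11. These are medians over genes of the same arrays, with no test between the sets.

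**Figure D4:**
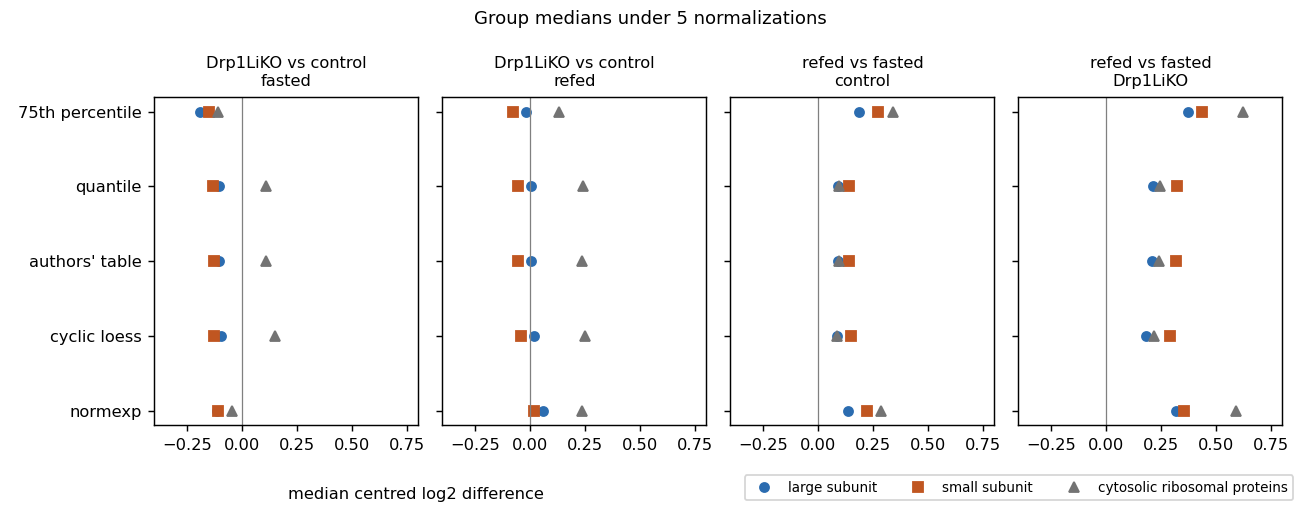
Median centred log2 difference (horizontal axis) of the large subunit, the small subunit and the 80 cytosolic ribosomal proteins in the 4 contrasts, under 5 ways of normalizing the signals (rows). The refeeding medians of both mitochondrial subunits are above 0 in every row and smaller in the middle 3 rows, and the cytosolic median of the refed genotype contrast lies between 0.13 and 0.25.

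Genes of mitochondrial translation are known to be controlled through nuclear respiratory factors NRF1 and GABP, the latter of the ETS family, and through YY1. The 300 bases around the start of transcription were searched on both strands for the letters GCGCA and GCGC with any 1 base between them (NRF1), CCGGAAG (ETS) and AAGATGGC (YY1), in RefSeq promoter windows of GRCm38.p6, which hold 250 bases before and 50 after the start. Windows were found for 67 of the 76 members, 73 in all. NRF1 letters were in 12 windows, 16.4%, against 4.60% of all 32851 windows and 9.36% of the 11922 windows of genes detected on all 4 arrays. ETS letters were in 24 windows, 32.9%, against 8.86% and 16.7%, and YY1 letters in 12 windows, 16.4%, against 2.75% and 4.28%. At least 1 of the 3 was in 41 windows, 56.2%, against 14.7% and 26.9%. The median GC content was 58.3% in the members' windows, 52.7% in all windows and 60% in those of the detected genes. The last 3 letters of the ETS motif are the first 3 of the YY1 motif, but no member's window held the 2 as 1 merged stretch. A match describes letters in a window and is not a bound site.

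**Figure D5:**
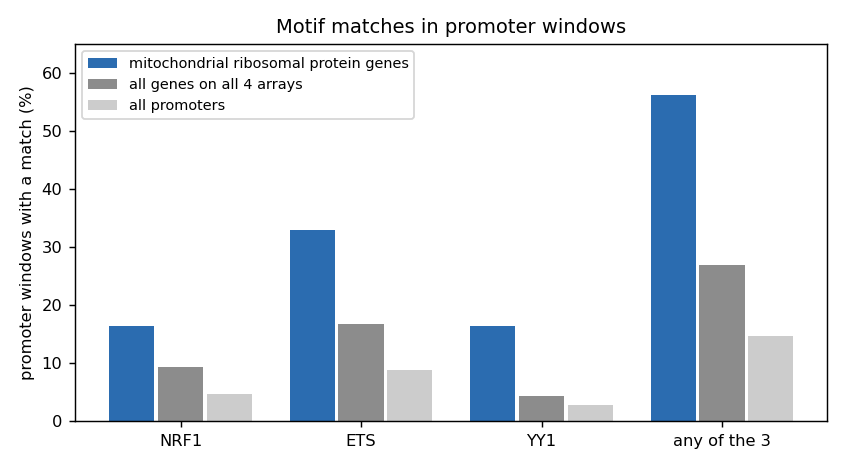
Share of promoter windows with a match to each motif (vertical axis, percent) for the 73 windows of the members (blue), the 11922 windows of genes detected on all 4 arrays (dark grey) and all 32851 windows (light grey). The members' share is the highest of the 3 for each motif, with 56.2% against 26.9% and 14.7% for any of them.

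No test was made between members with and without a match. The 41 genes with any match and the 26 without had medians of -0.26 and -0.13 for genotype after fasting, -0.07 and -0.04 after refeeding, 0.19 and 0.23 for refeeding in control liver and 0.40 and 0.39 in Drp1LiKO liver. The 12 genes with YY1 letters and the 55 without had -0.32 and -0.19 for genotype after fasting and 0.34 and 0.40 for refeeding in Drp1LiKO liver. With and without NRF1 letters, 12 and 55 genes had -0.23 and -0.19 for genotype after fasting. For refeeding in Drp1LiKO liver these had 0.36 and 0.40. For the ETS letters the 24 genes with and the 43 without had -0.24 and -0.15 for genotype after fasting and 0.44 and 0.31 for refeeding in Drp1LiKO liver. The genes of the factors themselves were within 2 SEs of 0 for genotype, with Nrf1 at -0.23 and 0.12, Gabpa at -0.03 and -0.20 and Yy1 at 0.11 and 0.03. On refeeding Gabpa had -0.33 and -0.47, and Nrf1 -0.36 and 0.02. The windows shown here hold each of the motifs, in capitals, in the direction of transcription. Mrpl34 (chr8:71464676-71464975, plus strand) has the lowest genotype difference of the members in fasted liver and 1 ETS match. Mrpl45 (chr11:97315466-97315765, plus strand), the membrane-docking protein, has 3 NRF1 matches. Mrps7 (chr11:115603890-115604189, plus strand) and Mrps11 (chr7:78782881-78783180, plus strand) have 1 YY1 match each, in opposite directions. Mrps11 starts head to head with Mrpl46 of the large subunit, the only pair of neighbours among the members. Their refeeding values were 0.36 and 0.33 in control and 0.58 and 0.45 in Drp1LiKO liver.
Mrpl34: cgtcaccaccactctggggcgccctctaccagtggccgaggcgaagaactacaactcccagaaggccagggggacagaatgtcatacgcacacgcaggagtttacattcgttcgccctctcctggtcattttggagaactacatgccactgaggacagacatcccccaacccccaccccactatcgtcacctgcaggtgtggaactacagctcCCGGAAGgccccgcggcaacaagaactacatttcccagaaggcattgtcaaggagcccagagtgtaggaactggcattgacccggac
Mrpl45: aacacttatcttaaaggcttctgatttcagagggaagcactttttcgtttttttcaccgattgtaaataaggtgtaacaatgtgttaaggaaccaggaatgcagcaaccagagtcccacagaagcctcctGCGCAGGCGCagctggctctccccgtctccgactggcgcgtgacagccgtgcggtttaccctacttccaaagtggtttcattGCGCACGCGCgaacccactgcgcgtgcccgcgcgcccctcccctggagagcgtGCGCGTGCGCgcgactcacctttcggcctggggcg
Mrps7: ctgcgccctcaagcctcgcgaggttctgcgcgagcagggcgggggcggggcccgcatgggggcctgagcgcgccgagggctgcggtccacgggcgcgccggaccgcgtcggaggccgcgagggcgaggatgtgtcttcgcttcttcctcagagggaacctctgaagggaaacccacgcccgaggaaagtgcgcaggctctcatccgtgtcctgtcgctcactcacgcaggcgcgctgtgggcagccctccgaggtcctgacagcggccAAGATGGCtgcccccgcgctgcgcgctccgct
Mrps11: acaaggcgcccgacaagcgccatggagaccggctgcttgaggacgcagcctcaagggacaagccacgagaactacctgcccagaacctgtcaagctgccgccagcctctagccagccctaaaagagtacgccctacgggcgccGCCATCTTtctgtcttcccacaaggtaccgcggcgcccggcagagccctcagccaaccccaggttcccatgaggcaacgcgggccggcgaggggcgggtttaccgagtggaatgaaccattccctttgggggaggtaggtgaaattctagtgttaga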

How the data were processed

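Liver RNA labelled with Cy3 was hybridized to Agilent arrays, all on 1 slide and in 1 scan. The intensity values are the processed signals deposited by the authors in the scanner files, background-subtracted within each array by Feature Extraction (version 10.7.1.1 per the file headers and 9.5.1.1 in the submitters' processing notes) and not normalized between arrays. A second deposited table holds the authors' normalized signal values, which were used as an alternative. RNA kit and array design in the study's methods differ from the labels, and the files carry the design of the labels.

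Each array has 43020 gene spots for 39429 probes, between 48.7% and 58.2% of them well above background and 0 saturated. Spots with an outlier flag were dropped, which removed 37 probes, 1 of them for Mrpl47. Log2 signals were set relative to the array's 75th percentile, and spots of a probe were averaged (median SD of spots 0.0560 to 0.0706). A gene was read from the probe well above background on most arrays, then the brightest. Names outside the member rule were updated through RefSeq (26761 of 28389 accessions matched). A gene was called at 2-fold after centring. The additive model was fitted with limma on genes detected on at least 2 arrays. The number of arrays limits the precision, and replicate error could not be estimated. Named genes are the 5 highest and lowest members per contrast, those with the smallest limma p, those with probes that differ by more than 1, and members fixed by role. The cell type lists came from textbook markers. The members and the lists were chosen with earlier results of these data known. On simulated gene values, the genotype effect of limma, the 2-fold rule and the recovery of a median shift put into the members were tested. The other steps were not tested in this way. Values were computed in Python (3.11.15; numpy 2.4.6; pandas 2.3.3), figures drawn with matplotlib (3.10.9) and models fitted in R (4.3.3; limma 3.58.1).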

Additional observations from a re-analysis of the deposited data

How the results depend on the processing

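The values were recomputed with scaling to the median, quantile normalization, cyclic loess, normexp background correction, the table of the authors, the probe median per gene, every probe counted separately, other filters, no centring, a 1.5-fold threshold, the subunits as in the structure and the proteins under other symbols added. Of 264 values of the member set, the subunit gap and limma, 230 stayed close to the main value. The limit was 1 SD of a difference of repeated spots for medians and gaps, and 1.5-fold for counts. The values under scaling to the median were kept by construction, since centring removes the change of scale. The refeeding medians in control and Drp1LiKO liver were 0.11 and 0.24 with quantile normalization, 0.10 and 0.23 with cyclic loess, and 0.11 and 0.24 in the authors' values. Without centring they were 0.33 and 0.52, and the fasted genotype median was -0.31. Centring on all 30439 genes, dim ones included, turned the sign of several medians. The refeeding median in control liver went to -0.014 (33 members above the median gene) and that of the large subunit to -0.048, and the fasted genotype median of the small subunit went to 0.029. The member medians were then -0.0084 for genotype after fasting (36 above), 0.25 after refeeding (65 above) and 0.30 for refeeding in Drp1LiKO liver. The cause was not tested.

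At 2-fold, 1 member passed on refeeding in Drp1LiKO liver with cyclic loess and without centring (Mrpl19 in both) and 1 with the probe median (Mrpl21, through a second probe above background on no array). For the gap between the refeeding differences, 1 passed with the probe median (Mrpl21) and 1 with probes counted separately (the dim Mrpl41 probe). With the probe median, Mrpl47 had 0.046 for refeeding in Drp1LiKO liver. At 1.5-fold, 2, 1 and 16 passed for genotype after fasting, genotype after refeeding and refeeding in Drp1LiKO liver. Large minus small in the refed genotype contrast was -0.038 with probes counted separately.

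limma called 1188 genes for genotype and 12 for feeding among genes detected on all 4 arrays, 474 for genotype with an intensity trend and 1 for genotype with genotype as the single factor, with no member among them in any setting. At an unadjusted limma p under 0.05, members for genotype numbered 17 with the trend, 1 with the single factor and 3 with quantile normalization, and for feeding 3 with the single factor and 6 with quantile normalization. Of 2340 values of the 44 named genes and of the subunits, 2144 stayed within the limit set and 194 moved beyond it. The rest were subunit medians that changed sign. Among the moved values, 14 of named genes that lay over 1 SE from 0 also changed sign. The limit was the measurement SE for named genes. For subunit medians it was the SD of a difference of repeated spots, and for subunit counts 1.5-fold. No paired analysis was possible because each group has 1 array, and no replicate could be left out.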
